A study of Mus musculus with 30 samples.

Results

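The response to doxorubicin was followed for 9 h in mouse embryonic fibroblasts in which p53 had been switched back on. The arrays were chosen by their titles: those of AdenoCRE cells at 0, 1, 3, 6 and 9 h of doxorubicin, which are 5 of the 30 arrays analysed. The fibroblasts were isolated from E13.5 embryos of a C57BL/6 x 129SvJ background and carried p53 LSL/LSL alleles, in which both copies of p53 stay silent until Cre recombinase removes a stop cassette. They received an adenovirus carrying Cre (AdenoCRE) for 24 h and then 500 nM doxorubicin, and the 0 h array is of AdenoCRE cells without the drug. There was 1 array for each time.

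The same cells given a GFP virus (AdenoGFP), in which p53 stayed silent, were measured at the same 5 times, again with 1 array each. The viruses differ in Cre and GFP as well, so restored p53 and other effects of the virus cannot be told apart from these 10 arrays. A separate readout came from AdenoCRE cells given siRNA for 24 h and 100 nM doxorubicin for 13 h. The experiment named lincP21KD held siP53 (3 arrays), siLincp21 against lincRNA-p21 (3 arrays) and scrambled siRNA (2 arrays). The experiment named hnRNPKKD held siP53, siLincp21, siHnrnpk against an RNA-binding protein, and control siRNA (3 arrays each). All groups of an experiment were fitted together, so each adds to the spread behind the siP53 p-values. The labels leave unsaid whether replicates came from separate cultures, so the siRNA p-values below measure only the spread between these arrays. In the time course no time was repeated, so its p-values and standard errors do not measure spread between replicates. They measure departure from the fitted model, in which real change and array error cannot be told apart.

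Doxorubicin traps topoisomerase on DNA and causes double-strand breaks, which activate the kinase ATM and stabilise p53. The p53 tetramer binds pairs of a short DNA motif, the p53 decamer, and switches on genes for cell cycle arrest, cell death, DNA repair and metabolism, and also Mdm2, whose product destroys p53 and closes a feedback loop. Fibroblasts usually answer with arrest rather than death.

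The promoters of the 3 steepest rising genes that hold the p53 decamer, and that of Cdkn1a, the best known p53 target, are shown to let a reader see the sites beside the values. Each is the 250 bases before the gene's start, 5′ to 3′ on the gene's strand, from RefSeq on GRCm38.p6, with matches to the p53 decamer consensus in capitals. They lie at chr2:28466325-28466574 (minus strand), chr10:81482700-81482949 (minus), chr1:34677932-34678181 (plus) and chr17:29090729-29090978 (plus).
1700007K13Rik: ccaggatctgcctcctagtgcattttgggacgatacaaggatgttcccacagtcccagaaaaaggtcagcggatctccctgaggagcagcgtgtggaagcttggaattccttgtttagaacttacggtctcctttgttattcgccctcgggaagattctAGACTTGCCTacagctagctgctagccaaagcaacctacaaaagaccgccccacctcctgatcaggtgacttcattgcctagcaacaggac
Celf5: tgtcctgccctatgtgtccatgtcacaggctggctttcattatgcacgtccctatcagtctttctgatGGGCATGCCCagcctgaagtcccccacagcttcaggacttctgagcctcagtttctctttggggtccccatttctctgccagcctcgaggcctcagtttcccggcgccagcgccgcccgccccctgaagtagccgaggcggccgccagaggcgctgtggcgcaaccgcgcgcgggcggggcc
Arhgef4: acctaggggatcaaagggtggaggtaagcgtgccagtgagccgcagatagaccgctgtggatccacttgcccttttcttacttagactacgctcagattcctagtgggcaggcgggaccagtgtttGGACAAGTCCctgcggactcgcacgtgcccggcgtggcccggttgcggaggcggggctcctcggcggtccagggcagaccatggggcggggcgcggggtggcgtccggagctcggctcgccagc
Cdkn1a: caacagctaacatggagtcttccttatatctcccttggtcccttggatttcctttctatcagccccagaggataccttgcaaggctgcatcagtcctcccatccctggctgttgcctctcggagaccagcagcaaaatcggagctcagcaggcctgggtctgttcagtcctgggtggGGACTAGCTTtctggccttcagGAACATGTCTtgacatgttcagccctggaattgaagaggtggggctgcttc

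The decamer is its own reverse complement, so a search of 1 strand covers both. Over windows of 300 bases, which add 50 bases after the start, it was found in 22 of 205 genes that rose with hours (10.7%) and in 858 of all 10231 tested genes with a promoter in the table (8.39%), so the share among risers was near that of all genes. Among 57 genes of p53 target lists 16 held it (28.1%), but these lists average 1.51 windows per gene against 1.28 for all genes. A pair of decamers at most 13 bases apart was found in 6 genes (0.0586%), and Cdkn1a, with 12 bases between its decamers, was one of them. The run directly after the second Cdkn1a decamer misses the consensus at its first base only, so it is not marked. A match is a run of letters and not evidence of binding, and most of the rising genes had none in this window.

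The 5 AdenoCRE arrays had medians between 4.976 and 5.025 over all probe sets on the log2 scale. The 1 h array stood apart, with the lowest mean correlation with the other 4 (0.9829). Its hybridization control BioB read 10.09 against 9.27 to 9.74 on the others. The Tfrc control probes at the 3′ end read 6.50 on it against 7.63 to 8.20. Among the AdenoGFP arrays these Tfrc probes were lowest at 1 h too, at 7.496 against 7.54 to 8.137. Whether the low Tfrc reading came from the array or the hour was not tested. Of the AdenoGFP arrays the one at 6 h had a median of 8.02 over the tested genes, against 8.20 to 8.32 for the others. All 11 fibroblast markers passed the filter on low values, with levels from 7.27 to 14.43 on the AdenoCRE arrays. The list for macrophages summed to between 40.9 and 44.3 (5 of 8 passed), that for endothelium to between 25.8 and 27.7 (1 of 6 passed) and that for epithelium to between 38.2 and 40.4 (5 of 7 passed). A member of each of the macrophage and epithelium lists rose with hours: Cd14 from 6.39 to 8.35 and the keratin Krt19 from 8.83 to 10.26. At 9 h Cd68 was 2.25-fold and Krt7 2.4-fold above 0 h, and neither passed the trend. Of the other tested members, Csf1r was at 1.22-fold and Epcam at 1.15-fold of 0 h. Lyz2 was at 0.841-fold, Krt8 at 0.799-fold and Krt18 at 0.725-fold. The macrophage gene Tyrobp stayed between 4.73 and 4.88, and the part of other cells in the results was not tested.

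By a straight line on hours more genes rose than fell. The line was fitted to each of 12673 tested genes, and 244 rose (1.93%) and 40 fell (0.316%) at a Benjamini-Hochberg adjusted p below 0.05 in limma. The median slope of all tested genes was -0.000293 log2 per h. The split varied with the fit: robust variances gave 441 rising and 163 falling genes, and a joint fit of the 10 arrays 503 and 185. The steepest riser, the predicted gene 1700007K13Rik, lies outside the rule for named genes and was chosen after its values were seen.

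1700007K13Rik read 6.80, 7.33, 8.69, 10.71 and 11.15 at 0, 1, 3, 6 and 9 h. It rose at every step, 20.5-fold in all, with a slope of 0.52 ± 0.05 (SE, n = 5) log2 per h and an adjusted p of 0.0218. In AdenoGFP cells it lay between 3.99 and 4.54, below the limit of 4.544 used for low values.

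Tbc1d8, which encodes a protein of the family that switches off Rab GTPases, read 4.89, 5.09, 5.95, 8.61 and 8.86. The first 3 arrays were low and the last 2 high, and the slope was 0.50 ± 0.06 per h (adjusted p = 0.025). Celf5, an RNA-binding protein gene, read 4.62, 5.42, 5.74, 8.30 and 8.85, an 18.8-fold rise that came mostly after 3 h (0.49 ± 0.05, adjusted p = 0.0218). Icam1, the adhesion molecule that binds leukocyte integrins, read 5.28, 6.09, 7.45, 9.14 and 9.45 and climbed at each step (0.48 ± 0.05, adjusted p = 0.025). Its AdenoGFP values, from 4.40 to 5.99, were highest at 9 h too.

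Acaa1b, a thiolase of peroxisomal fatty acid breakdown, read 3.81, 4.00, 5.16, 7.07 and 7.66. At 0 and 1 h it lay below the limit for low values, so its 14.4-fold rise starts from values near background, and its near-identical copy Acaa1a read 7.41 at 0 h and 7.05 at 9 h on a probe set of its own. Tnfrsf18, the costimulatory receptor GITR of the TNF receptor family, read 4.12, 4.08, 4.94, 6.92 and 7.90, with the whole rise after 1 h (0.46 ± 0.03, adjusted p = 0.0218). Slc4a11, a membrane transporter, read 6.08, 6.38, 6.92, 9.07 and 9.79, and its second probe set had nearly the same slope (0.48 against 0.45 per h). Vnn1, a pantetheinase that recycles vitamin B5, read 6.07, 6.90, 7.34, 9.61 and 10.08, so it too was clearly higher from 6 h.

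Of the other genes with the steepest slopes, Arhgef4 went from 5.41 to 8.98, Plek2, a pleckstrin, from 4.08 to 7.59, and Ppp2r2c, a regulatory subunit of a protein phosphatase, from 4.08 to 7.83. For Arhgef4 and Ppp2r2c the other probe sets did not share the rise: the second probe set of Arhgef4 had a slope of 0.01 per h, and those of Ppp2r2c -0.04 and 0.10.

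**Figure D1:**
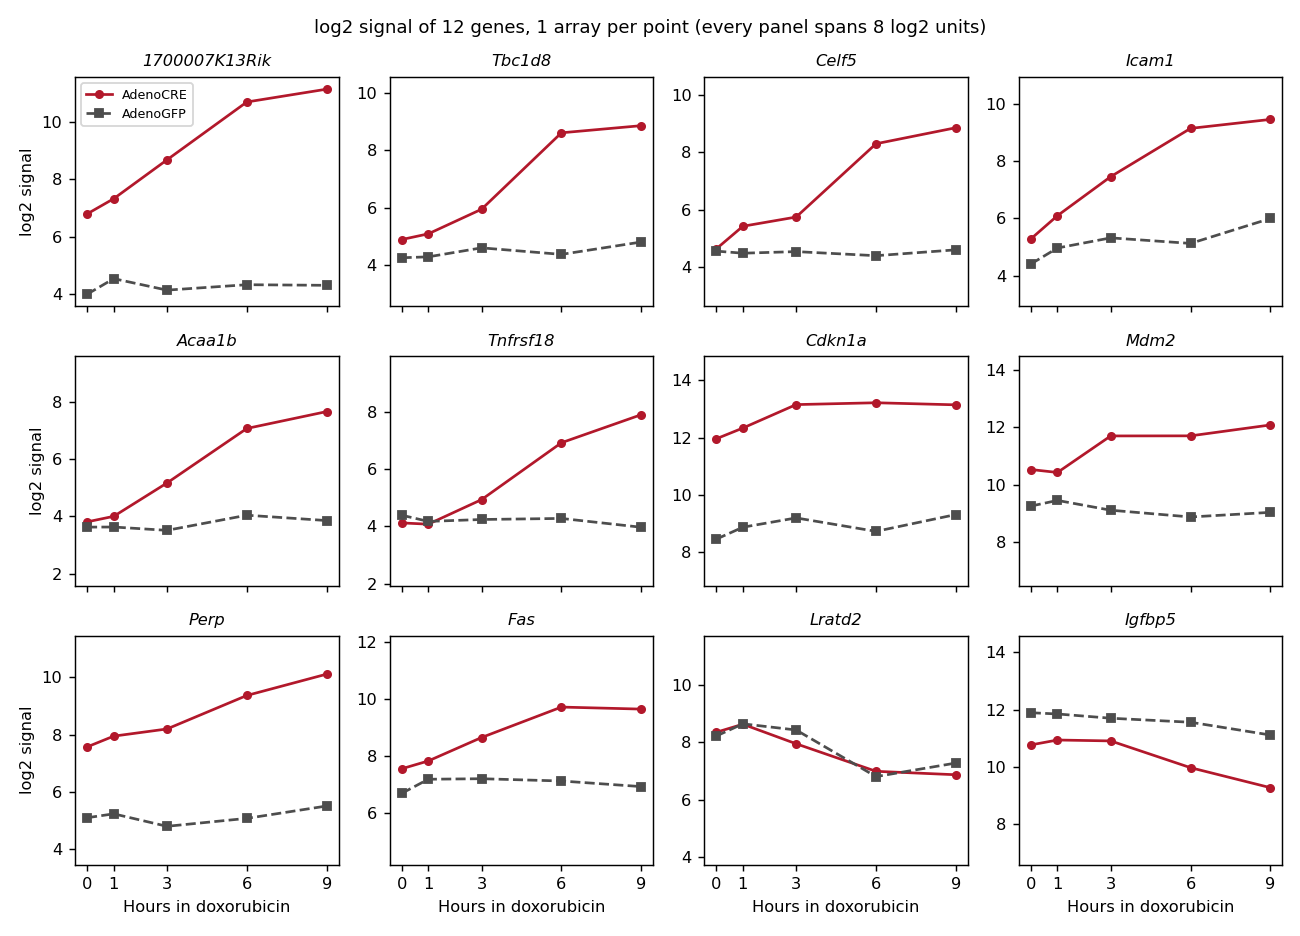
Log2 signal against hours in doxorubicin for 12 genes, with 1 array per point; red circles are AdenoCRE cells, grey squares AdenoGFP cells, and every panel spans the same number of log2 units. Steep risers such as Tbc1d8 and Celf5 part from their AdenoGFP values mostly between 3 and 6 h, while Cdkn1a starts 11.3-fold above AdenoGFP at 0 h and Lratd2 falls in both.

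Most of the 244 rising genes shared a time of rise. The largest single step lay between 3 and 6 h in 195 of them (79.9%), against 25.8% of all tested genes (steps taken by size, in either direction), although this interval is also longer than the first ones. Their median change from 0 h was 0.185, 0.44, 1.18 and 1.5 log2 at 1, 3, 6 and 9 h. The share and these medians describe genes chosen by the same trend, which Cdkn1a, level from 3 h on, did not pass. At 9 h 215 of the 244 were at least 2-fold above 0 h. The median gap to AdenoGFP went from 0.26 at 0 h to 1.53 at 9 h. At 0 h 170 of them (69.7%) lay within 0.5 log2 of AdenoGFP, against 92.7% of all tested genes. For 21 of them (8.61%) the AdenoCRE array was already 2-fold or more above AdenoGFP at 0 h, against 0.765% of all. In AdenoGFP cells 192 of the 244 (78.7%) had a slope of the same sign, with a median of 0.03 per h, where 65.4% of all tested genes did.

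Counts of genes past 2-fold from 0 h, which compare 1 array with 1 array and have no test, do not rest on the straight line. At 1 h 77 genes were at least 2-fold higher (0.608%) and 232 at least 2-fold lower (1.83%). At 3 h the counts were 101 higher (0.797%) and 119 lower (0.939%). At 6 h 326 were higher (2.57%) and 154 lower (1.22%), and at 9 h 417 were higher (3.29%) and 96 lower (0.758%). The higher group thus grew at each time while the lower group was largest at 1 h, on the array with the highest BioB reading. In AdenoGFP cells the counts higher were 50, 18, 70 and 78, and those lower 14, 38, 269 and 16, the 269 on the 6 h array with the lowest median.

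**Figure D2:**
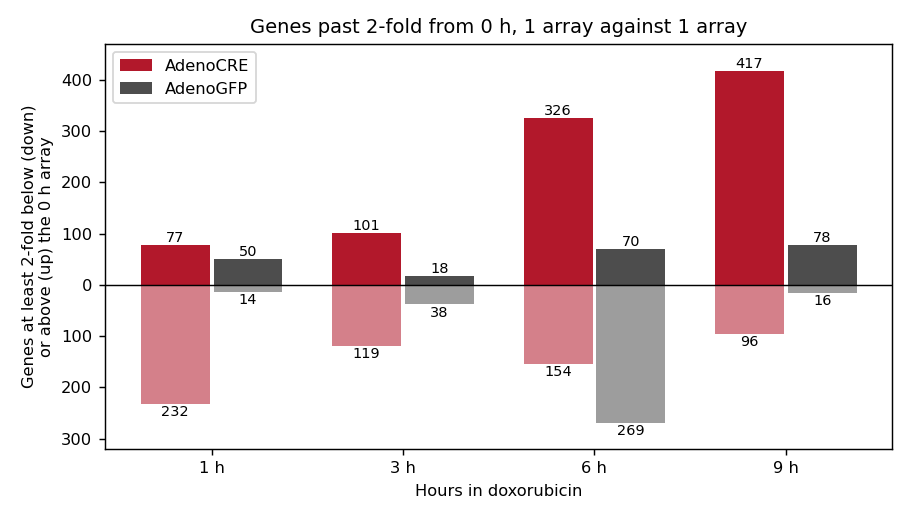
Number of tested genes at least 2-fold above (bars up) or below (bars down) the 0 h array of the same virus at each time, for AdenoCRE (red) and AdenoGFP (grey). Genes higher in AdenoCRE cells grow from 77 at 1 h to 417 at 9 h, against 50 and 78 in AdenoGFP cells.

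The p53 targets were read in 4 lists by role, and 14 of the 67 tested members passed the trend upward and 0 downward. Their median slope was 0.07 per h against -0.000293 for all tested genes, and 57 of the 67 slopes were above 0. By the contrast of late (6 and 9 h) against early (0 and 1 h), 23 of the 67 were higher and 0 lower, where all tested genes gave 337 higher (2.66%) and 133 lower (1.05%). The spread behind this contrast holds any real change within the early and within the late times as well as array error. The trend and this contrast use the same arrays and are not independent of each other, and p53 target lists are known from other systems to respond to damage. The 4 lists were also chosen with earlier results of these data known, so their counts are a description and not separate support.

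Among 14 arrest genes only Psrc1, a spindle protein, passed the trend, beside 1.93% of all tested genes that rose. It read 10.22, 10.08, 10.73, 11.18 and 11.34 (adjusted p = 0.0418). Its slope of 0.14 per h became 0.09 by the mean of its probe sets (adjusted p = 0.0379), and it did not pass in the joint fit of 10 arrays (adjusted p = 0.186). Cdkn1a, which encodes the kinase inhibitor p21, read 11.96, 12.34, 13.16, 13.22 and 13.15. It was low at 0 and 1 h and level from 3 h on, so it did not pass the straight line (0.13 ± 0.04 per h, adjusted p = 0.155) but was 1.03 ± 0.17 higher late than early (adjusted p = 0.0409). Its AdenoGFP values, from 8.46 to 9.32, lay below all 5 AdenoCRE values.

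Ddit4l, an inhibitor of the growth kinase mTOR, had the largest change of the arrest genes, with 7.81, 7.95, 10.12, 10.80 and 10.62. The 2 early arrays were low and the other 3 high, and it was 2.83 ± 0.15 higher late (adjusted p = 0.00446). Gtse1, a microtubule protein that binds p53, and Trp53inp1, a stress protein that promotes p53 phosphorylation and stands in the arrest and feedback lists, also passed late against early, at 1.21 and 1.55. Btg2, an antiproliferative gene, took another course: it read 9.88, 12.29, 11.75, 11.31 and 11.35, highest at 1 h, and passed neither test.

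Of 10 feedback regulators none passed the trend and 2 were higher late than early, beside 2.66% of all tested genes higher late. Mdm2, the ubiquitin ligase of p53, read 10.53, 10.43, 11.70, 11.71 and 12.09, with no change at 1 h and a step of over 1 log2 by 3 h. It was 1.42 ± 0.17 higher late than early (adjusted p = 0.021), and its AdenoGFP values, 8.87 to 9.45, did not overlap. Ppm1d, the phosphatase that removes damage-kinase marks, went from 7.77 to 8.46 and Ccng1, a cyclin that recruits a phosphatase to Mdm2, from 12.92 to 13.45, and neither passed. Mdm4, the partner of Mdm2, lay between 7.54 and 8.14.

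Of 17 cell death genes 4 rose with hours and 9 were higher late, beside 1.93% and 2.66% of all tested genes. Fas, the death receptor, read 7.56, 7.83, 8.65, 9.71 and 9.64 (slope 0.25 ± 0.04, adjusted p = 0.0352). Perp, a membrane protein of desmosomes and apoptosis, read 7.57, 7.94, 8.19, 9.36 and 10.11 and rose at each step (0.28 ± 0.02, adjusted p = 0.0218). Tnfrsf18 is described above, and Siva1, a proapoptotic gene, went from 10.98 to 12.07.

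Pmaip1, which encodes the BH3-only protein NOXA, read 9.15, 9.62, 11.06, 11.15 and 11.47. Eda2r, the ectodysplasin receptor, read 7.97, 7.64, 9.62, 9.55 and 9.69. Both were low at 0 and 1 h and high in a plateau from 3 h, and were 1.93 ± 0.21 and 1.82 ± 0.17 higher late (adjusted p = 0.0161 and 0.0103). Bbc3, which encodes PUMA, moved from 7.87 to 8.25 and passed neither test.

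Repair and metabolism genes made up the longest list, with 9 of 28 rising with hours and 8 higher late. Of all tested genes 1.93% rose and 2.66% were higher late. Dcxr, a reductase of sugar metabolism, read 8.70, 9.33, 9.96, 10.97 and 11.45 and was higher at each time than at the one before (0.30 ± 0.03, adjusted p = 0.0218). Tap1, the peptide transporter of antigen presentation, read 6.39, 6.99, 8.08, 9.15 and 9.20 (adjusted p = 0.0339), but its other 3 probe sets had slopes from -0.03 to 0.08 per h against 0.32.

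Crip2, a LIM domain protein gene, went from 10.02 to 12.05, Dgka, a lipid kinase, from 7.43 to 9.50 and Pltp, a phospholipid transfer protein, from 9.09 to 10.96. Smaller rises were those of Pml, the organiser of nuclear bodies, from 8.03 to 9.46, Ephx1, a detoxifying hydrolase, from 10.60 to 11.90, Ak1, an adenylate kinase, from 10.60 to 11.48, and Sulf2, which trims heparan sulfate, from 11.66 to 12.61. By the mean of their probe sets Ak1 (0.0573 per h, adjusted p = 0.111) and Sulf2 (0.0517 per h, adjusted p = 0.139) did not pass, and neither did Tap1 (0.0972 per h, adjusted p = 0.0551). Ephx1 did not pass in the joint fit (adjusted p = 0.0635). Ercc5, a nuclease of excision repair, and Polk, a bypass polymerase, passed late against early, at 1.28 and 1.46. Sesn1 and Rps27l, both known p53 targets, were nearly level, from 7.51 to 7.62 and from 13.51 to 13.71.

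**Figure D3:**
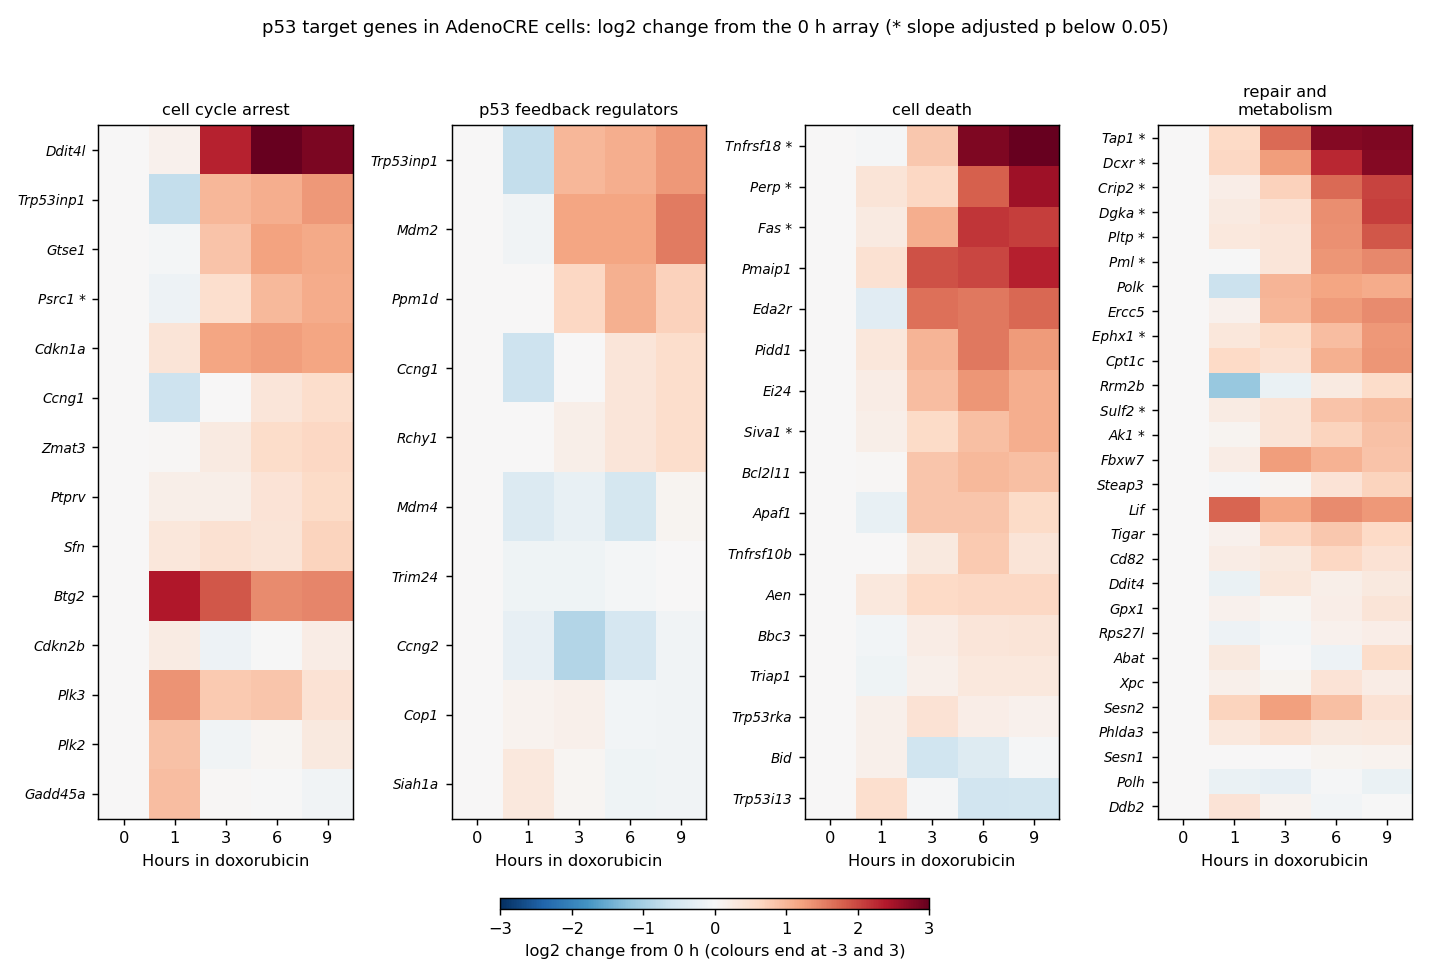
Log2 change from the 0 h array in AdenoCRE cells for each tested member of the 4 p53 target lists, ordered by slope, with hours across; an asterisk marks an adjusted p below 0.05 for the slope. Most of the colour lies at 3 h and later, as in Pmaip1 and Eda2r, whereas Btg2 is darkest at 1 h.

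Of the lists not drawn up as p53 targets, that for PPAR and peroxisomal fatty acid genes had a share of risers like the p53 lists. These lists too were chosen with earlier results of these data known, so their counts are a description. Of 15 tested 3 rose (20%; Acaa1b, Vnn1 and Pdk4) and 0 fell, beside 20.9% of the 67 p53 list genes and 1.93% of all tested genes. Of 29 tested genes of the NF-kB and inflammatory list 1 rose (Icam1) and 0 fell, and its median slope was 0.02 per h. Of 30 interferon response genes 2 rose, Ifi35 from 10.35 to 11.57 and Tap1, which stands in the p53 list as well, and 0 fell. Pdk4, a kinase that inhibits pyruvate dehydrogenase, read 7.56, 7.51, 8.61, 9.57 and 9.68 (adjusted p = 0.0315). In AdenoGFP cells it was also higher at 9 h (8.54) than at 0 h (6.74).

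Sterol synthesis genes leaned the other way. None of the 20 tested had a slope above 0. By the trend 1 fell and 0 rose, beside 0.316% and 1.93% of all tested genes. The list's median slope was -0.06 per h. This median was -0.0951 without the 0 h array and -0.0323 without the 9 h array. Hmgcs1, the synthase that starts the pathway, read 11.89, 11.90, 11.87, 11.07 and 10.71, level to 3 h and lower afterwards (-0.15 ± 0.02 per h, adjusted p = 0.0396), and its other 4 probe sets had slopes from -0.18 to -0.10. Insig1, which holds the sterol sensor in the endoplasmic reticulum, read 8.68, 9.43, 8.85, 7.73 and 7.28 and just missed (adjusted p = 0.0687). The list's median slope in AdenoGFP cells was 0.01 per h.

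Mitotic genes were low in the middle of the course. Of 34 tested, 1 fell with hours and 0 rose, beside 0.316% and 1.93% of all tested genes. Late against early, 4 were lower, beside 1.05% of all. Ccnb2, a mitotic cyclin and the last gene inside the threshold, read 10.29, 10.43, 10.02, 9.22 and 9.22, with both late arrays below the rest (adjusted p = 0.05 after rounding). The first gene outside, Cltb, had an adjusted p of 0.0501. Plk1, the polo kinase, read 10.49, 10.53, 9.54, 9.40 and 9.66, and was 0.97 lower late (adjusted p = 0.0353). In AdenoGFP cells Plk1 read 10.74, 10.37, 9.81, 9.61 and 10.09. It was lowest at 6 h there as well, on the AdenoGFP array with the lowest median over the tested genes.

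Of 26 genes of unfolded protein and amino acid stress 1 fell and 0 rose, beside 0.316% and 1.93% of all tested genes. The gene that fell was Xbp1, the spliced transcription factor of that response. Xbp1 went from 12.23 to 11.29 (adjusted p = 0.0412) and from 12.35 to 11.60 in AdenoGFP cells. None of 43 DNA replication, 25 DNA repair and checkpoint, 26 extracellular matrix or 15 ribosomal protein genes passed the trend. The median slope of the ribosomal proteins was 0.00163 per h.

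**Figure D4:**
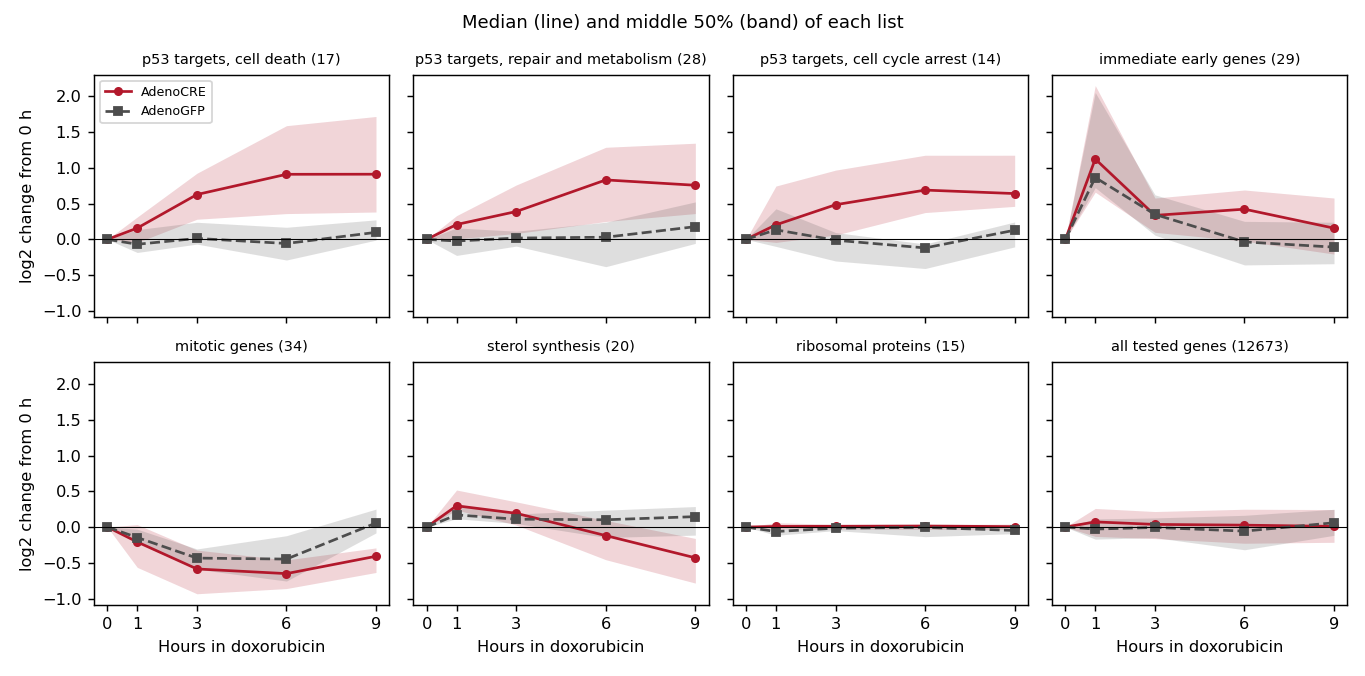
Median log2 change from 0 h (line) and middle 50% of members (band) for 7 gene lists and for all tested genes, in AdenoCRE (red) and AdenoGFP (grey) cells, with the number of tested genes in each title. The p53 lists part from AdenoGFP after 1 h, immediate early genes peak at 1 h in both, and sterol genes fall below 0 h only in the AdenoCRE medians at 6 and 9 h.

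The 40 genes that fell, also chosen by the straight line, did so late. The largest step lay between 3 and 6 h in 30 of them, and 27 were at least 2-fold below 0 h at 9 h. In AdenoGFP cells 39 of the 40 (97.5%) also had a slope below 0. Their median slope was -0.07 per h there, against -0.14 in AdenoCRE cells. The sign of the slope was the same with both viruses in 78.7% of the risers and 65.4% of all tested genes. Among the genes the naming rule takes, which passes over predicted genes, Lratd2 fell most steeply, from 8.36 at 0 h through 8.64, 7.95 and 6.99 to 6.87 (-0.20 ± 0.03, adjusted p = 0.0364), and went from 8.22 to 7.28 in AdenoGFP cells.

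Cd200, a surface protein that restrains myeloid cells, read 7.78, 7.93, 7.36, 6.81 and 6.10 and was lowest at 9 h (adjusted p = 0.0226). Igfbp5, which binds insulin-like growth factors, read 10.77, 10.94, 10.91, 9.97 and 9.27, level to 3 h and then lower (adjusted p = 0.0452). Mapk12, a stress kinase, went from 8.41 to 7.09, Sox11, a transcription factor of progenitors, from 10.07 to 8.85 and Slc2a13, an inositol transporter, from 6.42 to 5.13. Kctd15, a BTB domain protein gene with 1 probe set, went from 10.02 to 8.79.

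Some steep falls rest on 1 probe set of several, and these 3 did not pass by the mean of the probe sets. Gfra2, a receptor of neurotrophic factors, went from 6.16 to 4.66 with other probe sets between -0.04 and 0.01 per h. Gtdc1 went from 7.58 to 6.24 with the others at -0.01 per h, and Chst2, a sulfotransferase, from 8.58 to 7.33 with the others likewise at -0.01.

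At 1 h a brief burst of immediate early genes, which are transcribed without prior protein synthesis and code for transcription factors and signalling proteins, stood out. Of 29 tested, 18 were at least 2-fold above 0 h in AdenoCRE cells, beside 0.608% of all tested genes. The median change was 1.12 log2 in AdenoCRE and 0.86 in AdenoGFP cells. By 9 h the medians were 0.16 and -0.11, and 0 of the 29 passed the trend in either direction. The examples that follow were chosen after their values were seen.

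Arc, a cytoskeletal protein of activated cells, read 5.06, 9.14, 6.11, 5.66 and 5.57 in AdenoCRE and 4.97, 9.06, 5.37, 5.42 and 5.39 in AdenoGFP cells. Fos, a subunit of AP-1, read 7.52, 11.33, 9.33, 9.80 and 9.18, and 7.71, 11.37, 8.70, 9.03 and 8.61 with AdenoGFP. Both genes were highest at 1 h in both series of arrays, with AdenoCRE above AdenoGFP at 3, 6 and 9 h. Atf3, a stress-induced repressor, went from 6.56 to 9.75 at 1 h and back to 6.62, and from 7.15 to 9.51 at 1 h in AdenoGFP cells.

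The 232 genes at least 2-fold lower at 1 h returned toward their start. Their median change was -1.20, -0.77, -0.50 and -0.45 at 1, 3, 6 and 9 h, and 12 were still 2-fold lower at 9 h. In AdenoGFP cells 6 of the 232 were 2-fold lower at 1 h, with a median of 0.02, which became -0.50 at 3 h. Kif20b, a mitotic kinesin, read 8.27, 5.93, 6.28, 7.41 and 7.03, and 8.09, 8.05, 6.44 and 7.32 at 0, 1, 3 and 6 h in AdenoGFP cells, so the low value came at 1 h in the first and at 3 h in the second. Genes of numbered zinc finger families, a list also chosen after values were seen, made up 46 of the 232, or 13.4% of the 343 tested, against 1.83% of all tested genes. With 1 array at 1 h, and that array highest in its BioB control, the array and the hour cannot be told apart.

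A few genes had their extreme at 3 h, given here as a description with no test. Hivep3, a zinc finger protein gene, read 7.58, 7.82, 8.95, 7.43 and 7.17, and Sema7a, a membrane semaphorin, 8.55, 8.93, 9.84, 8.50 and 7.79. Socs2, an inhibitor of cytokine signalling, read 7.79, 7.49, 8.89, 7.57 and 7.22, so all 3 were about 1 log2 or more above 0 h on the 3 h array only. In the other direction Ogt, the enzyme that adds O-linked sugar to proteins, read 9.26, 8.53, 8.02, 8.55 and 9.33, and Nudt12, an NADH hydrolase, 5.05, 4.21, 3.68, 4.41 and 5.28.

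Late against early, the genes highest above their start after the predicted gene 1700007K13Rik (3.87) were Tbc1d8 (3.75 ± 0.16, adjusted p = 0.00389), Icam1 (3.61 ± 0.29), Celf5 (3.56 ± 0.31), Acaa1b (3.46) and Mreg (3.38 ± 0.13), a melanosome protein gene that read 4.79, 4.87, 5.92, 8.21 and 8.20. The lowest were Mipol1 (-1.86 ± 0.19, adjusted p = 0.014), Prdm16 (-1.83 ± 0.14), the regulator of brown fat, Cemip (-1.81 ± 0.19), which degrades hyaluronan, Kif21b (-1.79 ± 0.22), a kinesin, and Trib3 (-1.71 ± 0.26), a stress pseudokinase. Prdm16 read 6.32, 6.46, 5.08, 4.52 and 4.60 in AdenoCRE cells. In AdenoGFP cells it read 6.14, 6.48, 5.54, 4.69 and 5.60, so the late values were below 0 h in both. The lowest AdenoGFP value was at 6 h, on the array with the lowest median.

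The trend rested on every array. Without the 0 h array 0 genes passed in limma (2930 at an unadjusted p below 0.05), without the 1 h array 0 (2195), without 3 h 55, without 6 h 18 and without 9 h 3. Late against early, 13 genes passed without 6 h and 10 without 9 h, 470 without 3 h (which the contrast leaves out), 585 without 1 h and 1050 without 0 h, the last split into 590 higher and 460 lower. All 44 named genes that passed the trend kept the sign of their slope in each of these fits. Without the 1 h array all 244 risers kept a slope above 0, their median slope was 0.18 per h as before, and 173 of them were higher late than early. Of the 67 p53 list genes 28 were higher late without it, and of the 20 sterol genes 0 were lower. The 244 risers and the 44 named genes were chosen by their slope on these same arrays, so their kept signs are no separate support.

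The course differed between the viruses in a small number of genes. In AdenoGFP cells 0 genes passed the trend on their own 5 arrays (1410 at an unadjusted p below 0.05). A difference between the slopes themselves was called in 23 genes (0.181%), all steeper in AdenoCRE cells. All 23 were among the 244 risers, with which this test shares arrays. None of the 40 fallers was among them.

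Tnfrsf18 had the smallest adjusted p, with a difference in slope of 0.49 ± 0.04 per h (adjusted p = 0.00583). Bnc1, a zinc finger protein gene of epithelia, read 4.37, 4.42, 5.58, 7.56 and 7.84 and passed AdenoGFP on the way, since it started at 5.35 there and ended at 5.12. Notch3, a receptor of cell contact signalling, read 6.42, 7.25, 7.83, 9.55 and 10.05, against 6.11 and 6.18 at the ends of the AdenoGFP course. Robust variances gave 41 such genes, and no call remained without the pair of arrays at 0 h or at 1 h.

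The siRNA arrays gave a test of the rising genes on samples that the trend did not use. In the lincP21KD experiment 113 of the 244 risers were lower with siP53 (46.3%), against 5.74% of all tested genes, and in the hnRNPKKD experiment 191 were lower (78.3%), against 19.2%. Read the other way, the risers were 15.5% of the 727 genes lower in the first experiment and 7.83% of the 2438 in the second. In both experiments 111 risers were lower, and in neither 51. Few risers were higher with siP53, at 6 and 9, where 7.01% and 19.3% of all genes were.

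Among the risers the largest mean falls with siP53 were in 1700007K13Rik (outside the naming rule), at -4.41 ± 0.15 (lincP21KD, 3 against 2 arrays) and -5.36 ± 0.62 (hnRNPKKD, 3 against 3), and in Dcxr, at -3.0 ± 0.15 and -3.61 ± 0.36. Acaa1b was at -2.47 ± 0.12 and -3.95 ± 0.28, Celf5 at -2.53 ± 0.11 and -3.45 ± 0.20, and Cox6b2, a subunit of cytochrome oxidase known from testis, at -2.61 ± 0.13 and -3.46 ± 0.40. All of these passed in both experiments, with the largest adjusted p at 2.59e-05. Cdkn1a, which did not pass the trend, was at -2.07 and -2.64 (adjusted p = 4.9e-06 and 4.4e-07).

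Icam1 differed in size between the experiments, at -0.71 (adjusted p = 0.039) and -2.57. Mreg passed in neither, at -0.39 and 0.31 (adjusted p = 0.206 and 0.184), and Pdk4 was at -0.32 and -0.18, also past neither threshold. Bnc1 was 0.55 higher in the lincP21KD experiment (adjusted p = 0.0144) and at -0.42 in the other (adjusted p = 0.0760). Of the 67 p53 list genes 41 and 49 were lower with siP53 in the 2 experiments, beside 5.74% and 19.2% of all tested genes. These lists were chosen with earlier results of these data known.

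**Figure D5:**
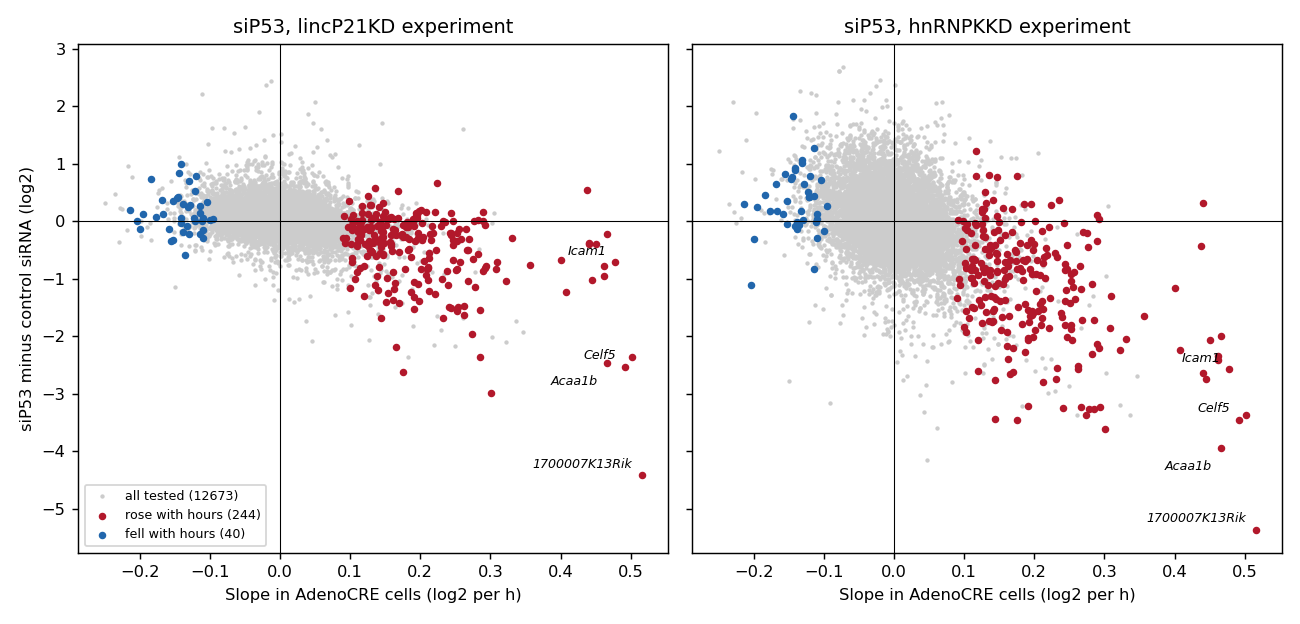
Log2 difference between siP53 and control siRNA (vertical) against the slope in AdenoCRE cells in log2 per h (horizontal) for all 12673 tested genes, with the 244 that rose in red and the 40 that fell in blue, in the lincP21KD (left) and hnRNPKKD (right) experiments. Most red points lie below 0, with medians of -0.33 and -0.98, and 1700007K13Rik is lowest.

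The 40 falling genes were read on the same siRNA arrays. In the lincP21KD experiment 10 of the 40 were higher (25%) and 1 lower, and in the hnRNPKKD experiment 19 were higher (47.5%) and 2 lower, beside 7.01% and 19.3% of all tested genes higher. Mapk12 was at 0.36 and 0.65 and Igfbp5 at 0.74 and 0.46, and both passed in each experiment. Cd200 and Chst2 passed in neither.

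Other siRNAs in the same experiments, examined after the siP53 values were seen and sharing control arrays with them, were read over the same 244 risers. With siHnrnpk, against an RNA-binding protein, 121 risers were higher (49.6%), against 14.1% of all tested genes. With siLincp21, against lincRNA-p21, 97 were higher in the hnRNPKKD experiment (39.8%, against 17.2%) and 18 in the lincP21KD experiment (7.38%, against 7.47%). Celf5 was 1.38 ± 0.20 higher with siHnrnpk (adjusted p = 0.000255) and 0.78 ± 0.20 higher with siLincp21 (adjusted p = 0.00996) in hnRNPKKD, but at 0.32 (adjusted p = 0.0943) with siLincp21 in lincP21KD.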

How the data were processed

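The deposited table holds log2 signal made by the authors with RMA, per the submitters' processing notes; the RMA version and chip definition are not given in the sources used here. Values were used as deposited, within each experiment. Of 45101 probe sets, 34958 had 1 gene symbol, 932 several and 9211 none, and 34754 matched a current entry. Each gene was read from the probe set that was brightest on average across the 30 arrays. Probe sets in the lowest 40% (log2 4.544 or less) were dropped, leaving 12673 of 18193 genes. The tests were limma 3.58.1 (R 4.3.3, eBayes defaults), with Benjamini-Hochberg adjustment across these genes. The trend had 3 residual degrees of freedom, late against early 2, and the slope difference 6; each siRNA experiment was 1 fit. Fits were tested on simulated data.

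The arrays and gene lists were chosen with earlier results of these data known. Named genes are Cdkn1a, the 10 steepest called slopes each way, the 6 highest and lowest called late against early, up to 5 members of each list described and any p53 list member. They also take in up to 8 slope differences, 6 extremes each way at 3 h and the 6 risers lowest with siP53; predicted genes lacking a real symbol were skipped. Alternatives were the filter, the mean of probe sets, scaling, robust variances, log hours, a joint fit and left-out arrays. Trp53, Trp53cor1, Gdf15, Bax and Ccnb1 are not analysed here. Promoters were read with Python.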

Additional observations from a re-analysis of the deposited data

Results flagged for a closer look

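The test of the difference in slope between AdenoCRE and AdenoGFP cells singled out 23 genes, all steeper in AdenoCRE cells. The differences, in log2 per h, were 0.502 for 1700007K13Rik, 0.493 for Tnfrsf18, 0.49 for Celf5, 0.485 for Bnc1, 0.451 for Tbc1d8, 0.449 for Ppp2r2c, 0.44 for Slc4a11 and 0.428 for Notch3. They were 0.427 for Acaa1b, 0.422 for Vnn1, 0.398 for Arhgef4, 0.361 for Bmp8a, 0.339 for Ppp1r14a, 0.307 for Robo3, 0.284 for St14, 0.262 for Dgka, 0.259 for Col10a1 and 0.249 for Perp. The smallest were 0.236 for H3c11, 0.227 for Aldh4a1, 0.199 for Ltb4r1, 0.196 for Snai3 and 0.191 for Kcnj4.

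On the siRNA arrays, which this test did not use, 16 of the 23 were lower with siP53 in the lincP21KD experiment and 20 in the hnRNPKKD experiment, 15 in both. Of all tested genes 5.74% and 19.2% were lower in these experiments. St14, a membrane protease, was at -1.15 and -3.27, and Col10a1, the collagen of hypertrophic cartilage, at -1.50 and -1.81. H3c11, a histone gene whose near-identical copies could share its probe set, was at 0.06 and 0.30.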

How the results depend on the processing

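The trend passed 284 genes, 326 without a filter, 197 with the lowest 60% left out, 250 after quantile scaling and 344 after centring. It passed 604 with robust variances, 688 in the joint fit of 10 arrays and 5 on log2(hours + 1), and between 0 and 55 with an array left out. Late against early passed 470 genes, 729 with robust variances, 738 in the joint fit and between 10 and 1050 with an array left out. The slope difference passed 23 genes, 9 with the lowest 60% left out, 36 after quantile scaling, 43 after centring, 41 with robust variances, 5 on log2(hours + 1) and between 0 and 19 with a pair of arrays left out; with time as a replicate block it passed 23, of which 17 were shared. Genes at least 2-fold lower than 0 h were 138, 66, 99 and 57 at 1, 3, 6 and 9 h by the mean of probe sets, an alternative chosen after seeing the data, instead of 232, 119, 154 and 96. The slopes of the 44 named genes that passed the trend and of Cdkn1a kept their sign under each alternative run on them. The 44 were chosen for passing the trend on the same arrays, so their kept signs are no separate support. The other named genes were not rerun.

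Risers lower with siP53 numbered between 80 and 108 (lincP21KD) and 181 and 193 (hnRNPKKD) with an array left out, and 118 and 195 with the replicate block. The deviations of siP53 and control arrays with the same replicate number correlated at -0.218 and -0.211 in lincP21KD. In hnRNPKKD they correlated at 0.357, 0.359 and -0.186. Whether arrays with the same number were handled together was not tested. The block raised all calls from 1615 to 1790 and from 4887 to 5424. The cause of these shifts was not tested. With 1 array per time and 3 or fewer residual degrees of freedom, small changes may be missed.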

Other observations

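Lists that the time course barely called were read on the siRNA arrays, after their values in the time course were seen. Of 34 mitotic genes 13 were higher with siP53 in the lincP21KD experiment and 32 in the hnRNPKKD experiment, and 0 were lower in either, beside 7.01% and 19.3% of all tested genes higher. Ccnb2 was 0.41 and 0.73 higher and Bub1b, a spindle checkpoint kinase, 0.47 and 1.14. Of 20 sterol genes 10 and 14 were higher and 0 lower, with Hmgcs1 at 0.42 (adjusted p = 0.132) and 0.78 (adjusted p = 0.000709).

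Of 30 interferon response genes 21 were higher with siP53 in the lincP21KD experiment and 1 was lower, whereas in the hnRNPKKD experiment 10 were higher and 5 lower. Usp18, which removes the interferon-induced modifier ISG15, was at 1.60 (adjusted p = 0.000937) and -0.23 (adjusted p = 0.806). In the time course its AdenoCRE values were 4.88, 5.89, 6.74, 7.12 and 7.51, below the AdenoGFP values at each time, which lay between 7.28 and 8.04. It was higher late than early by 1.93 ± 0.34 (adjusted p = 0.0473).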
